A study of Mus musculus with 4 samples.

Results

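Transcripts of the nerves that supply the ureter were read from 29 genes of peripheral neurons and Schwann cells picked by symbol for their known roles. A probe set, the group of short array sequences that reads 1 transcript region, was a member when its annotation named exactly 1 gene symbol and that symbol was on the list. This gave 62 probe sets for 27 of the 29 genes, out of 45037 probe sets and 18193 genes in all; Prx and Calca were not analysed here. The tested samples were 3 unpooled samples of whole ureters, dissected from kidney and bladder, of male FVB/N mice at postnatal day 1 (Theiler stage 27) that carried an SMGA/EGFP transgene; its promoter is not spelled out in the labels. They were set against 1 pool of whole FVB/N mice of the same age, of both sexes and with no transgene given, and every sample went through 2 rounds of RNA amplification. Tissue, transgene, sex and pooling therefore cannot be told apart. The labels do not state whether the ureter samples came from different animals, so the p-values reflect only the spread among these samples, which may be technical.

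The ureter is innervated by sympathetic, parasympathetic and sensory axons, which modulate a peristalsis that the smooth muscle itself generates. Most of the neurons' cell bodies, where most neuronal mRNA is held, lie in ganglia outside the ureter, whereas Schwann cells accompany the axons into its wall. A whole newborn mouse also holds brain, spinal cord, sensory and autonomic ganglia, the enteric plexus and the adrenal medulla. In tissue of this kind fewer cells of a type and less RNA per cell cannot be told apart.

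The labelled tissue was checked on 5 genes of urothelium and ureteric muscle and mesenchyme (Upk1b, Upk3a, Myh11, Actg2 and Tbx18), and all 5 were higher in the ureters. Values below are quantile-normalised intensities, which set the same distribution on every array, and 27 probe sets for bacterial RNAs that were not added give the background. The brightest of these reached 94.2, 188 and 134 in ureter replicates 1, 2 and 3, against 127 in the reference, and a value at or under it is called background. Of 22 genes of the central nervous system, 10, 5 and 6 lay above background in ureter replicates 1, 2 and 3, against 17 in the reference. Of all probe sets, 66.7%, 53.8% and 60.2% lay above it in these ureters and 61.2% in the reference, so the counts also depend on each array's background level. The summed intensity of the 22 genes was 2978 to 3593 in the ureters and 27311 in the reference. Of the 17 above background in the reference, 3 (Dcx, Cspg5 and Emx2) were above it in all 3 ureters, and 6 (Zic1, Bcan, Slc17a6, Gad1, Gad2 and Neurod6) in none; these were named after their values were seen. The ureters also differed among themselves in 9 genes of adjacent kidney and bladder, whose summed intensity was 1165, 10583 and 5157 in replicates 1, 2 and 3, against 5376 in the reference. Umod, a gene of the kidney's loop of Henle that was chosen after its values were seen, had intensities of 55.6, 2019 and 961 in the ureters and 2001 in the reference.

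Tubb3, Nefl, Gap43 and Stmn2, genes of the neuronal cytoskeleton and of axon growth, the peptide gene Tac1 and the myelin gene Mbp were lower in the ureters than in the whole body, whereas the tested Schwann cell genes other than Mbp gave no difference past the test. For each gene the brightest probe set was taken, and 25 genes were bright enough to be tested. Of these 25, 6 were lower in the ureters, 0 were higher and 19 did not pass (limma, adjusted p under 0.05), and 15 of those 19 had a negative difference. Over all 13721 genes tested, 7.71% passed, 4.77% lower and 2.94% higher. The 3 ureters all lay below the reference in 16 of the 25 genes, against 30.7% of all genes tested, and all lay above it in 4, against 39.9%. The median log2 difference, ureter minus reference, was -1.45 over these genes and 0.10 over all genes tested. By probe set, 10 of 39 tested were lower, against 3.49% of all probe sets, and 0 were higher, against 2.68% (6.17% in either direction). A gene could pass the intensity filter through the reference alone and then had to differ, so these counts describe the tested genes and are not evidence about the whole list. With no filter 5 of all 62 probe sets were lower and 0 were higher, against 2.39% of all probe sets in either direction. With the filter kept and ureter replicate 3 left out, 1 of 39 was lower (Nefl), against 1.17% of all probe sets in either direction.

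**Figure D1:**
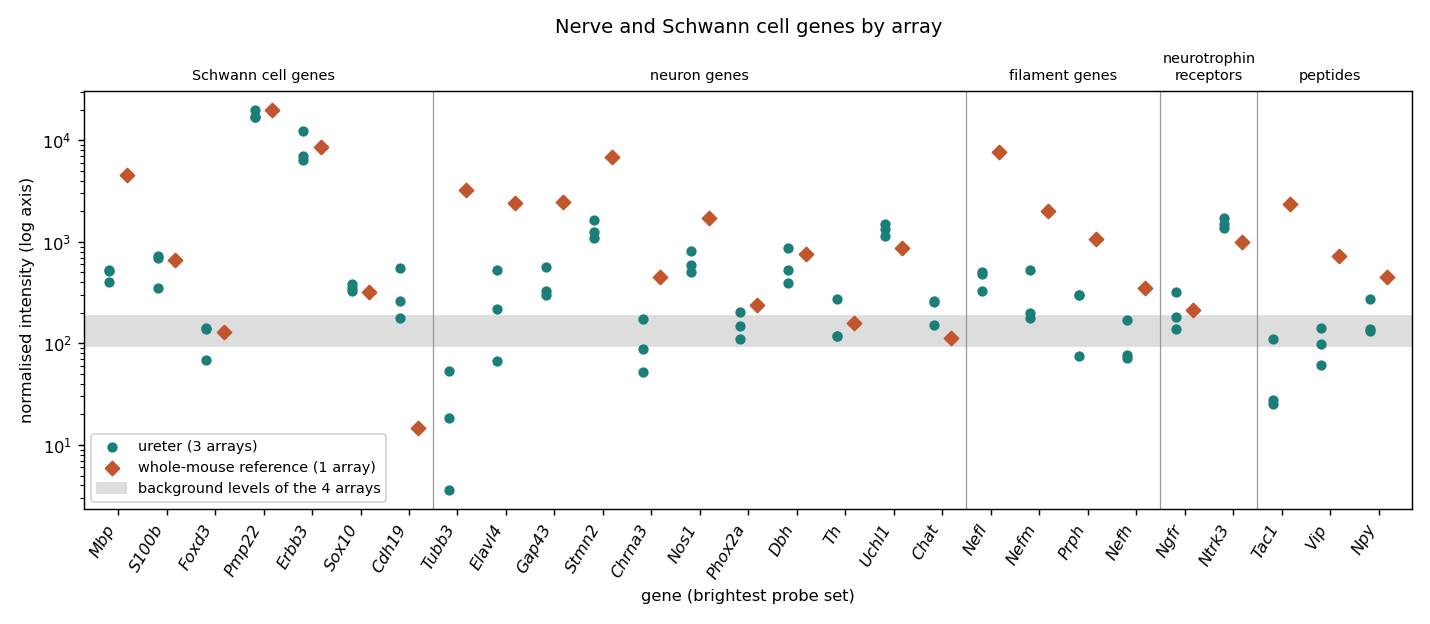
Normalised intensity (log axis) of the 27 measured genes at their brightest probe sets, with the 3 ureter arrays as circles left of the whole-mouse reference as a diamond, and the grey band spanning the background levels of the 4 arrays. The reference lies far above the ureters for Tubb3, Nefl, Tac1 and Mbp, while the symbols overlap or nearly meet for Sox10, Pmp22, Th and Ngfr.

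The listed Schwann cell genes Sox10, Erbb3, S100b and Pmp22 gave no call. Sox10, the transcription factor that specifies peripheral glia, had normalised intensities of 354, 386 and 327 in the ureters and 324 in the reference. All 3 ureters lay just above the reference, and the log2 difference was 0.13 ± 0.47 (SE; 95% interval -1.03 to 1.28; adjusted p = 0.903). Its other probe sets, both dimmer, were at background in the reference and above it in at most 1 ureter. Erbb3, the receptor through which axonal neuregulin drives Schwann cell survival, had 12342, 6974 and 6368 in the ureters and 8605 in the reference. The reference lay inside the ureters' range, with a difference of -0.07 ± 0.42 (interval -1.10 to 0.95; adjusted p = 0.940). Epithelia express Erbb3 as well, so its level in a whole ureter is not that of Schwann cells alone. S100b, which encodes a calcium-binding protein of glia, had 691, 348 and 728 in the ureters and 657 in the reference, a difference of -0.22 ± 0.56 that did not pass. Pmp22, a myelin protein gene that fibroblasts and epithelia also express, had 16924, 19719 and 17038 in the ureters and 19916 in the reference. All 3 ureters lay below it by a small margin (-0.16 ± 0.21; interval -0.67 to 0.35), which did not pass either. The direction of these small differences depended on the scaling between arrays: Sox10 was negative with the scaling as deposited (-0.52), Erbb3 was positive there (0.04), and Erbb3 (0.77), Pmp22 (0.64) and S100b (0.13) were positive with median-centred arrays, where the median of all probe sets was 0.60 in place of 0.11.

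Cdh19, a cadherin gene of Schwann cell precursors and Schwann cells, was measured above background in ureters alone. Its only probe set had 550, 180 and 260 in the ureters and 14.7 in the reference. It was above background in replicates 1 and 3 and not in replicate 2, and at background in the reference. With the reference set to its background level and replicate 2 kept at its own value, the ureters were 2.22-fold higher. As replicate 2 was at background, this is not a lower bound. The probe set was too dim to be tested; in a fit with no filter its difference was 3.52 ± 0.85 and did not pass (adjusted p = 0.106). Foxd3, which holds neural crest cells in an undifferentiated state, had 140.4, 68.3 and 140.2 in the ureters and 130 in the reference and was not tested for the same reason. The reference lay inside the ureters' range.

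Mbp, which encodes myelin basic protein, was lower in the ureters at 4 of its 8 probe sets. The brightest had normalised intensities of 526, 520.0 and 401 in the ureters, against 4576 in the reference. The groups lay far apart, with a log2 difference of -3.22 ± 0.42, a 9.34-fold lower value (adjusted p = 0.0155). The other 3 probe sets that passed gave -3.14, -2.89 and -3.14, and another gave -2.26 without passing (adjusted p = 0.123). The remaining 3 had positive differences with no call. One of them, the third brightest, had 2245, 979 and 2404 in the ureters and 1151 in the reference, and the reference lay inside the ureters' range (0.59 ± 0.59; adjusted p = 0.601). The others gave 0.26 and, untested, 0.50. The Mbp locus also makes golli transcripts, which share exons with myelin basic protein and occur outside myelin; the annotation used here does not state which transcripts each probe set reads. Averaged over all its probe sets the Mbp difference was -1.66, just short of the threshold (adjusted p = 0.0542).

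**Figure D2:**
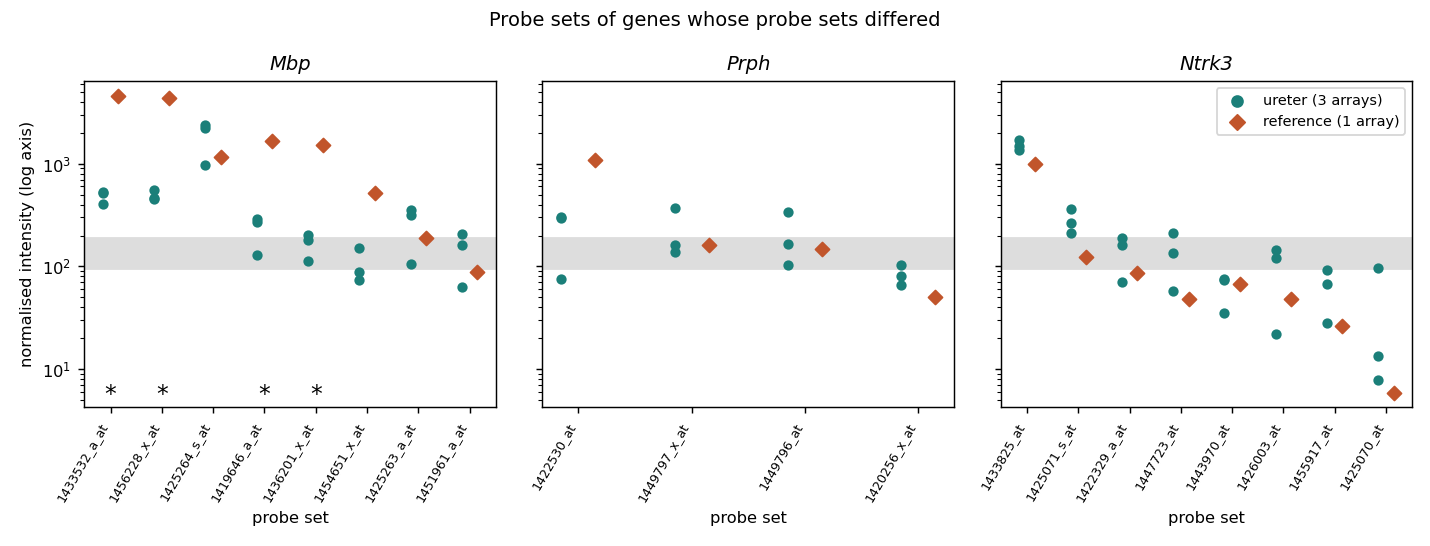
Normalised intensity (log axis) at each probe set of Mbp, Prph and Ntrk3, ordered from bright to dim, with ureters as circles left of the reference as a diamond, the background band in grey and an asterisk where the ureters were lower with adjusted p under 0.05. In Mbp 4 probe sets carry an asterisk, while at the third brightest the reference (1151) lies inside the ureters' range of 979 to 2404.

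Among the general neuronal genes, 3 of 11 were lower in the ureters (4.77% over all genes tested), 0 were higher (2.94%) and 8 did not pass. Tubb3, the beta-tubulin gene of neurons, had normalised intensities of 52.9, 18.5 and 3.57 in the ureters and 3229 in the reference. Every ureter was at background, so the difference is a lower bound of at least 22.2-fold (adjusted p = 0.0238). With an offset of 1 in place of 12.23 its adjusted p was 0.0637. Gap43, which encodes a growth cone protein of extending and regenerating axons, had 566, 298 and 330.3 in the ureters and 2491 in the reference, and no ureter came near the reference. Its difference was -2.67 ± 0.52, or 6.35-fold lower (adjusted p = 0.0400). Stmn2, a stathmin gene that regulates microtubules in growing axons, had 1242, 1633 and 1101 in the ureters and 6812 in the reference. All 3 ureters were well above background here, and the difference was -2.37 ± 0.40, or 5.17-fold lower (adjusted p = 0.0272). Its dimmer probe set gave -1.31 ± 0.50 and did not pass. With median-centred arrays neither Gap43 (-2.08; adjusted p = 0.0922) nor Stmn2 (-1.61; adjusted p = 0.172) passed.

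Elavl4 and Uchl1, markers used to stain neurons, gave no call and opposite signs. Elavl4, the gene of the neuronal RNA-binding protein HuD, had 67.1, 218 and 534 in the ureters and 2395 in the reference. The ureters differed 7.95-fold among themselves, and although all lay below the reference the difference of -3.48 ± 1.03 did not pass (adjusted p = 0.107); its other 2 probe sets gave -2.31 and -1.62, also without passing. Uchl1, which encodes PGP9.5, a ubiquitin hydrolase used to stain nerves, had 1517, 1130 and 1350 in the ureters and 871 in the reference. All 3 ureters were above the reference, by 0.60 ± 0.40 (interval -0.38 to 1.57), and the difference did not pass (adjusted p = 0.424). Uchl1 is also expressed outside neurons, and its part from nerves was not measured here.

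Genes of the transmitter phenotypes gave no call in either direction. Of the sympathetic pair, Th, the first enzyme of catecholamine synthesis, had 275, 119 and 118 in the ureters and 159 in the reference. Only replicate 1 was above background, and the reference lay inside the ureters' range (-0.01 ± 0.76; interval -1.86 to 1.84). Dbh, which converts dopamine to noradrenaline, had 395, 879 and 528 in the ureters and 767 in the reference (-0.42 ± 0.56; adjusted p = 0.7005). Its next probe set had 102, 454 and 246 in the ureters and 266 in the reference, and the dimmest, untested, was at background there. At the first pair, replicate 2 was highest and replicate 1 lowest, as in the summed kidney and bladder genes above; their part in the Dbh values was not tested. Phox2a, a transcription factor of noradrenergic neurons, had 150, 202 and 111 in the ureters and 239 in the reference, a difference of -0.63 ± 0.66 that did not pass.

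Chat, the acetylcholine-synthesising enzyme, had 152, 253 and 262 in the ureters and 112 in the reference. It was above background in all 3 ureters and not in the reference, so the ureters were at least 1.65-fold higher, but the difference did not pass (0.88 ± 0.65; adjusted p = 0.467). Slc5a7, which takes up choline into cholinergic terminals, had 339, 218 and 363 in the ureters and 33.4 in the reference. It was at least 2.24-fold higher and too dim to be tested; with no filter it did not pass (adjusted p = 0.112). The vesicular transporter gene of the same terminals, Slc18a3, was at background on every array. Chrna3, a nicotinic receptor subunit of autonomic ganglion cells, had 174, 87.9 and 52.2 in the ureters and 452 in the reference (-2.12 ± 0.83; adjusted p = 0.189). Among the ureters it was above background in replicate 1 alone. The gene of the partner subunit, Chrnb4, was at background on every array. Nos1, the nitric oxide synthase of neurons, had 597, 502 and 811 in the ureters and 1727 in the reference. All 3 ureters were below it, with a difference of -1.45 ± 0.45 that did not pass (adjusted p = 0.123).

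**Figure D3:**
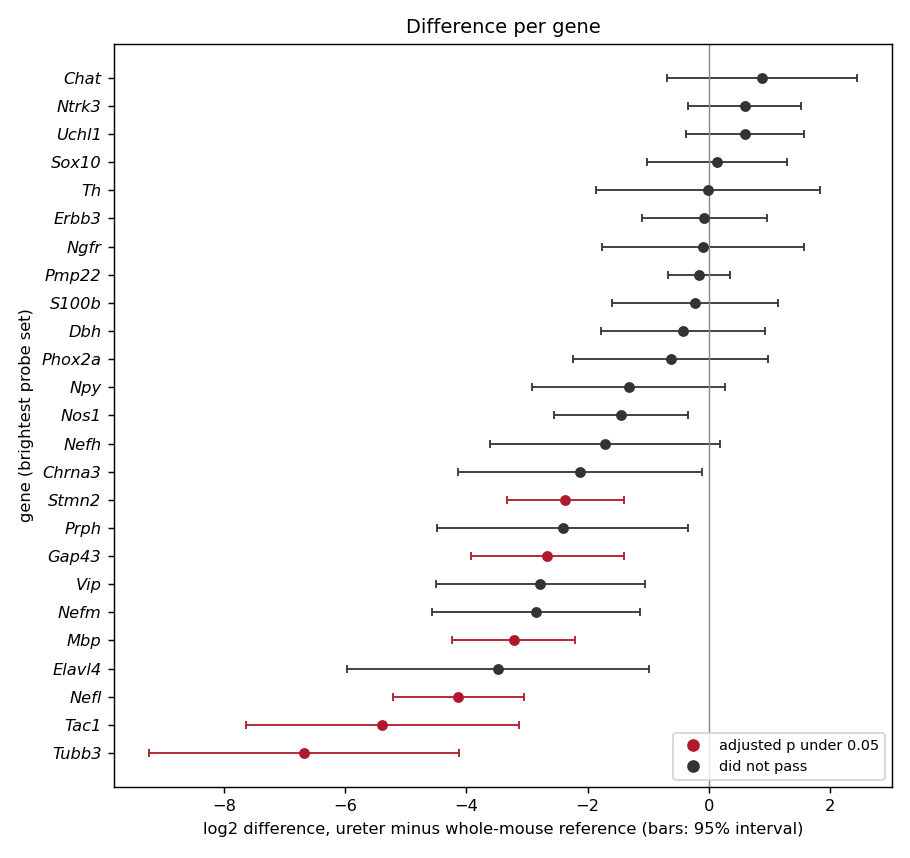
Log2 difference, ureter minus whole-mouse reference, of the 25 tested genes at their brightest probe sets, with bars for the 95% interval of the limma fit and red for adjusted p under 0.05. The 6 red genes, from Stmn2 at -2.37 to Tubb3 at -6.68, are all negative, and the positive values, up to 0.88 for Chat, have intervals that include 0.

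All 4 neuronal intermediate filament genes had every ureter below the reference (30.7% of all genes tested), and 1 of the 4 passed (7.71%). Nefl, the light neurofilament subunit on which the others assemble, had normalised intensities of 481, 331 and 501 in the ureters and 7757 in the reference. The ureters were all above background and the difference was -4.13 ± 0.44, or 17.5-fold lower (adjusted p = 0.0107). Its second probe set, with replicate 2 at background, gave -4.19 ± 0.84, or at least 15.9-fold lower with the background level in its place (adjusted p = 0.0424). The brightest Nefl probe set passed under every alternative run. Nefm, the medium subunit, had 534, 180 and 198 in the ureters and 2010 in the reference (-2.85 ± 0.70; adjusted p = 0.0715), and passed without replicate 1 (adjusted p = 0.0243). Nefh, the heavy subunit of mature large axons, was at background in every ureter, with 350 in the reference, so the ureters were at least 2.48-fold lower without passing (adjusted p = 0.248). Prph, the peripherin gene of peripheral neurons, had 301, 75.6 and 297 in the ureters and 1075 in the reference at its brightest probe set (-2.41 ± 0.85; adjusted p = 0.156). Its other 2 tested probe sets, both dimmer, gave 0.32 and 0.26 with no call, and the dimmest was at background on every array.

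The neurotrophin receptor genes showed no call. Ntrk3, the receptor of neurotrophin-3, had 1503, 1362 and 1718 in the ureters and 1002 in the reference, and all 3 ureters lay above the reference (0.60 ± 0.38; interval -0.34 to 1.53; adjusted p = 0.404). Of its 8 probe sets only 2 were tested; the other gave 1.08 ± 0.60, with the reference at background, and did not pass. Ngfr, the p75 receptor that binds all neurotrophins and marks immature Schwann cells and neurons, had 324, 138 and 180 in the ureters and 215 in the reference. The reference lay inside the ureters' range (-0.09 ± 0.69; adjusted p = 0.954), and its other 2 probe sets were at background on every array.

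The 3 measured neuropeptide genes all had every ureter below the reference (30.7% of all genes tested), and 1 passed (7.71%). Tac1, the precursor gene of substance P and neurokinin A, peptides of sensory and enteric neurons, had 111, 27.8 and 25.3 in the ureters and 2372 in the reference. Replicate 1 alone was above background among the ureters, and the difference was -5.39 ± 0.92 (adjusted p = 0.0290). With the 2 values at background set to the background level, Tac1 was at least 15.6-fold lower. Its adjusted p was 0.0524 with no filter. A dimmer Tac1 probe set, not tested, had 111, 118 and 43.4 in the ureters and 103 in the reference (-0.25). There the reference was at background and replicate 1 alone was above it. Vip, the gene of vasoactive intestinal peptide, a relaxant of smooth muscle, had 142, 61.4 and 98.4 in the ureters and 730.1 in the reference (-2.78 ± 0.71; adjusted p = 0.0769). Among the ureters Vip was above background in replicate 1 alone. It passed with an offset of 64 (adjusted p = 0.0433). Npy, the peptide that sympathetic fibres release with noradrenaline, had 140.0, 275 and 133 in the ureters and 451 in the reference, and its difference of -1.32 ± 0.65 did not pass (adjusted p = 0.283).

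The promoters of Tubb3, Tac1 and Vip, for which all 3 ureters lay below the reference, are shown beside that of Uchl1, for which all 3 lay above it. Promoter sequences from RefSeq (build GRCm38.p6) were matched for 19 of the 29 genes, 25 promoters in all, and the 250 bases before each start were searched on both strands for TATAAA (the core promoter box), for CCAAT (a common proximal element), for CAGCACC (1 stretch of the REST-binding element of neuronal genes), for GGACAG (another stretch of that element) and for TGACGTCA (the cAMP response element). The motifs do not overlap in the stretches shown. They are the plus-strand stretches chr8:123411303-123411552 (Tubb3), chr6:7554811-7555060 (Tac1), chr10:5638968-5639217 (Vip) and chr5:66675871-66676120 (Uchl1), written 5′ to 3′ with matches to any of the 5 motifs, on either strand, in capitals.
Tubb3: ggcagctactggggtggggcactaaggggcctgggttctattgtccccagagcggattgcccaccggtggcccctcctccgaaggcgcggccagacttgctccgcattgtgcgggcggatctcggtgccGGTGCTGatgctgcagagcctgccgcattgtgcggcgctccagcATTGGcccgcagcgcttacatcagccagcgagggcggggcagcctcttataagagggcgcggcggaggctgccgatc
Tac1: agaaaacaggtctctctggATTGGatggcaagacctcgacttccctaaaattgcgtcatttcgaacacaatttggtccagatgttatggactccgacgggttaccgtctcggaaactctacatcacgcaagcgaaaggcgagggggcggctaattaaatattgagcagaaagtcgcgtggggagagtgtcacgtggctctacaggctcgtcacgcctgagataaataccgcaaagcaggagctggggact
Vip: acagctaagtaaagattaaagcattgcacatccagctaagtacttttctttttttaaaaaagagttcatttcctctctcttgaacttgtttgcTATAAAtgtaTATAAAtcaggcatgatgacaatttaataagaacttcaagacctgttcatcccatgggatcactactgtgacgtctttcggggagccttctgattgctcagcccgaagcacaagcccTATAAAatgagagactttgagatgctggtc
Uchl1: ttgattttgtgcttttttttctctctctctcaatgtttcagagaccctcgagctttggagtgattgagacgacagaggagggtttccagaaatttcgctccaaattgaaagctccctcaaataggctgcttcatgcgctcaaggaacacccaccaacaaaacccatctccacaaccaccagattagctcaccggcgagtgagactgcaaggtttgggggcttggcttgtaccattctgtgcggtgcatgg

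Tubb3 held CAGCACC, as its reverse complement, 121 to 115 bases before the start, and CCAAT nearer to it, also reversed. Tac1 held CCAAT alone, reversed, and Vip held TATAAA at 3 places, the nearest 30 to 25 bases before the start. Uchl1 held none of the 5, which says only that these letters are absent from this window. Over all 32851 promoters, TATAAA occurred in 12.4%, CCAAT in 33.8%, CAGCACC in 5.73%, GGACAG in 18.7% and TGACGTCA in 1.55%. Among the 25 promoters of the listed genes these occurred in 2, 14, 1, 6 and 2, the last in Th and Foxd3. These matches are descriptions of the letters and were not related to the measured levels.

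Related gene lists gave the surroundings of these results, and their counts stand beside 4.77% lower and 2.94% higher over all genes tested. Of 33 tested genes of autonomic neurons outside the list above, 7 were lower in the ureters, 2 were higher and 24 did not pass, with a median log2 difference of -1.37. Stmn3, a stathmin gene related to Stmn2, had 331, 509 and 494 in the ureters and 14336 in the reference, or 31.9-fold lower (adjusted p = 0.00638). Mapt, the microtubule-associated protein tau, with 1 ureter at background, was at least 25.5-fold lower (adjusted p = 0.00932), and Ina, a neuronal filament gene, was at background in every ureter and at least 15.0-fold lower (adjusted p = 0.0184). Syp, a synaptic vesicle protein gene, differed by -0.03 and Ret, the receptor of glial-cell-line-derived factors, by -0.15, and neither passed; Ret had 479, 1912 and 971 in the ureters and 1067 in the reference, again with replicate 2 highest and replicate 1 lowest. The 2 higher genes, named after their values were seen, were Gata3 (2.01) and Gfra2 (1.73); Gata3 is also a urothelial and collecting duct gene. Of 24 tested genes of Schwann cells and other glia, 2 were higher, 2 were lower and 20 did not pass (median -0.31). The lower ones were Sox2 (at least 18.01-fold; adjusted p = 0.0156) and Pou3f1 (at least 27.5-fold, with 1 ureter at background; adjusted p = 0.0415), regulators that the central nervous system also uses. Egr2, the regulator of myelination, chosen after its values were seen, had 81.7, 402 and 362 in the ureters and 3965 in the reference without passing (adjusted p = 0.0563). Mal, a proteolipid gene of myelin and of epithelial apical membranes, was higher by 3.26 ± 0.34 (adjusted p = 0.00969), with 41122, 27401 and 23769 in the ureters and 3122 in the reference. The other higher gene, Adgrg6, was named after its values were seen. It had 11607, 7425 and 6406 in the ureters and 1791 in the reference, a difference of 2.19 ± 0.40 (adjusted p = 0.0345). Cadm4 (-0.01) and Cmtm5 (-0.03) did not pass.

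Genes of sensory neurons gave no call, with 6 of 13 measured genes bright enough to test (median -1.18). Ntrk2, the receptor of brain-derived neurotrophic factor, differed by 0.49 ± 0.35, and Isl2 by -0.28 ± 0.96. With 3 of 16 tested lower and 0 higher (4.77% and 2.94% over all genes tested), central nervous system genes had a median of -2.59. Zic1 was at least 35.9-fold, Slc17a6 at least 10.98-fold and Bcan at least 19.97-fold lower in the ureters, each at background in all 3, while Pax6 (-0.23) and Cspg5 (-0.30) did not pass. Neurons and glia of brain and spinal cord express Tubb3, Nefl, Mbp and Tac1 as well, and their part in the lower values of these genes in the ureters was not tested.

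**Figure D4:**
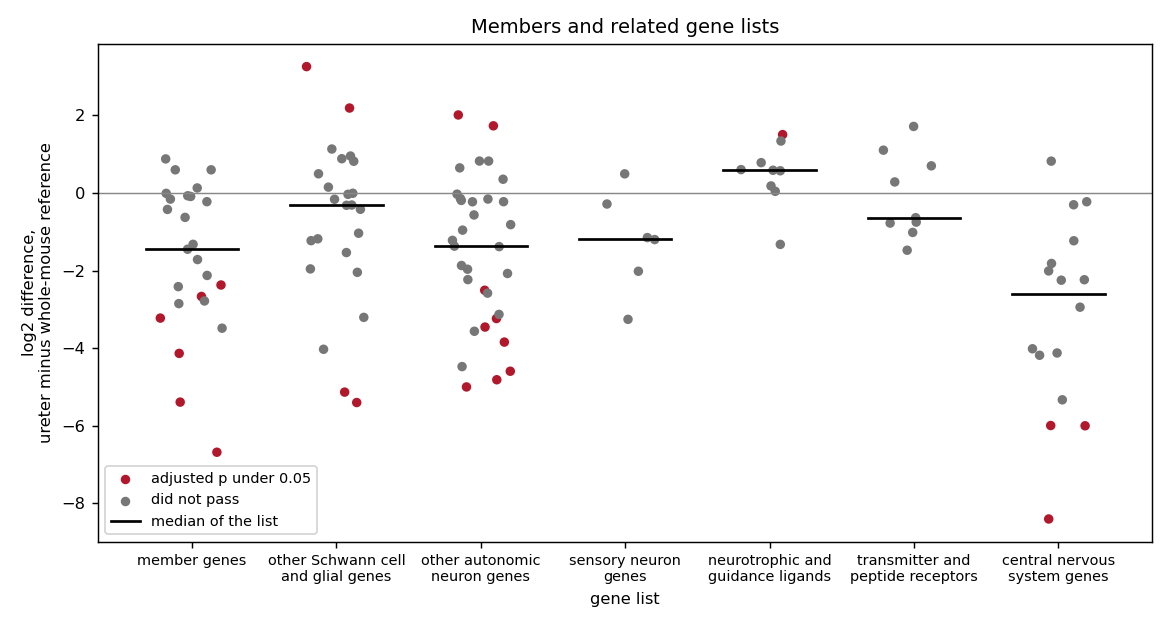
Log2 difference, ureter minus whole-mouse reference, of each tested gene in the listed nerve genes and 6 related lists, with red for adjusted p under 0.05 and a bar at each list's median. The medians run from -2.59 in central nervous system genes to 0.59 in neurotrophic and guidance ligands.

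Signals that reach nerves from their targets were measured alongside. Of 9 tested neurotrophic and guidance ligand genes (median 0.59), 1 was higher and 0 were lower, against 2.94% and 4.77% of all genes tested. It was Sema3c, a semaphorin that guides axons and neural crest cells, with 38532, 35206 and 37353 in the ureters and 13039 in the reference (1.504 ± 0.17, or 2.84-fold; adjusted p = 0.0123). Bdnf, a ligand of Ngfr and Ntrk2, had 138, 317 and 118 in the ureters and 453 in the reference without passing (adjusted p = 0.327). Nrg1, the ligand of Erbb3, had 138, 137 and 86.9 in the ureters and 79.4 in the reference and was not tested. It was above background in replicate 1 alone, where the background level was 94.2, against 188 in replicate 2. Nrtn (0.04) and Nrg2 (0.18) did not pass. Of the receptors for the nerves' transmitters and peptides, 0 of 9 tested passed (median -0.64). Calcrl, a receptor subunit for calcitonin gene-related peptide and adrenomedullin, had 2534, 9563 and 4258 in the ureters and 1422 in the reference, with every ureter above the reference and no call (1.71 ± 0.71; adjusted p = 0.209). As in the kidney and bladder sums, replicate 2 was highest and replicate 1 lowest, and their part was not tested. Its partner Ramp1 had 1376, 1020 and 1444 in the ureters and 2176 in the reference (-0.78 ± 0.41; adjusted p = 0.309). Among receptors for vasoactive intestinal peptide, Vipr1 was at background in the reference and in ureter replicate 2. With the reference set to its background level and replicate 2 kept at its own value, Vipr1 was 1.81-fold higher in the ureters, which is not a lower bound. Vipr2 gave -1.48 with 1 ureter above background. Among receptors for tachykinins, Tacr2 gave -0.64 while Tacr1 was at background on every array. None of these passed.

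The nerve and Schwann cell genes had a larger median spread between all 3 ureters than all genes tested. At their brightest probe sets the median SD of the log2 values over the 3 ureters was 0.53, against 0.32 over all genes taken the same way. Without replicate 1, 2 or 3 the 0.53 became 0.38, 0.29 or 0.63, with no value for all genes beside these. Of the 25 tested genes, 13 were above background in all 3 ureters, against 11701 of all 13721 genes tested. The part of dimness in the spread was not tested. Elavl4 (SD 1.39), Prph (1.05) and Tubb3 (1.022) varied most among the tested genes, and Sox10 (0.12), Pmp22 (0.12) and Ntrk3 (0.17) least. Of the 25 tested genes, replicate 1 had the highest value in 12, replicate 2 in 7 and replicate 3 in 6. The lowest value was in replicate 1 for 4, replicate 2 for 10 and replicate 3 for 11.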

How the data were processed

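Gene expression was measured on Affymetrix MOE430 arrays. The values the authors deposited are linear intensities, 1 per probe set and array, made with GCOS per the submitters' processing notes and scaled to a trimmed mean of 1500.01 on every array. The median intensity was 154, 259 and 186.5 in the ureters and 332 in the reference, so arrays were quantile normalised. The 64 control probe sets were left out, log2(intensity + 12.23) was taken (the offset is the 10th percentile of all values), and the dimmest 40% of probe sets were dropped, leaving 27023. A fold on this scale understates dim genes. Ureters minus reference was fitted with limma 3.58.1 (R 4.3.3; lmFit, eBayes with intensity trend, two-sided, Benjamini-Hochberg adjustment over all tested probe sets). With 1 reference array the spread comes from the ureters alone (2 residual degrees of freedom), which assumes that the lone reference varies like them. The number of arrays limits the precision. The fit was tested on simulated data that gave the reference the same spread as the ureters. That test therefore does not bear on the assumption about the lone reference.

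A fold is given as "at least" when 1 group was at background on every array; then the background level, or the probe set's own value if higher, stands for the dim group. The same level stands for single ureters at background where the text says so. For Cdh19 and Vipr1 ureter replicate 2 was at background as well and kept its own value, so their folds are not given as "at least". Gene symbols came from the platform annotation: 34945 of the non-control probe sets had 1 symbol, 932 several and 9160 none, and all 62 member probe sets kept their symbol in the RefSeq table. Every listed gene is named; of each related list, up to 3 called genes with the largest and 2 genes with the smallest difference, plus partners of listed genes, and any other is said to have been chosen later. The members and lists were chosen with earlier results of these data known. Alternatives covered scaling, offset, filter, variance trend, averaging of probe sets and leaving out each ureter.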

Additional observations from a re-analysis of the deposited data

How the results depend on the processing

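The 10 probe sets called lower, of 39 tested, stayed between 7 and 11 under other scaling or offsets of 1 or 64. A filter of 60% left 19 to test, without the brightest probe sets of Tubb3 and Tac1. Of these 19, 7 were lower, against 8.93% of all probe sets in either direction. The probe sets called lower numbered 5 with no filter and 6 with no intensity trend. Calls over all probe sets went from 1667 to 1075 with no filter and 904 with no trend, and those among 84 tested genes of related nerve lists from 15 to 9 of 108 with no filter. Leaving out 1 ureter gave 1 to 10 member probe sets, 317 to 2136 probe sets in all and 5 to 20 genes of the related lists, the lowest always without replicate 3. Each of these fits has 1 residual degree of freedom, and those without replicate 1 or replicate 2 gave 10 member probe sets each. Without replicate 3 the adjusted p was 0.0554 for Tubb3, 0.0889 for Tac1, 0.0747 for Mbp, 0.117 for Stmn2 and 0.151 for Gap43. The median SD between ureters ranged from 0.29 to 0.63. Of 252 values of single genes under an alternative, 220 kept their direction and side of the threshold, 13 lost a call, 5 gained one and 14 changed sign, all of the last without a call. The sign changes were Erbb3 at 0.0418 as deposited, 0.77 median-centred and 0.16 with probe sets averaged; Sox10 at -0.52 as deposited; Pmp22 at 0.64 and S100b at 0.13 median-centred; Th at 0.00934 with an offset of 64; and Dbh at 0.19 with probe sets averaged. Leaving out a ureter gave -0.37 to 0.11 for Erbb3, -0.41 to 0.17 for Ngfr, -0.40 to 0.11 for S100b and -0.39 to 0.18 for Th. Gap43 also missed the threshold with no filter (adjusted p = 0.0732) and no trend (0.0688), and Stmn2 with no trend (0.0579). Averaging each gene's probe sets left 10916 genes tested; Elavl4 then passed (0.0298), as did Nefm (0.0294) and Vip (0.0360), whose differences did not change. The causes were not tested. No paired analysis was possible because the reference has 1 array. Values at background on some or all arrays limit the folds of Tubb3, Tac1, Nefh, Chat, Cdh19 and the second probe set of Nefl.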

Other observations

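Catecholamine and endocrine genes of the adrenal medulla did not move as a group. Pnmt, which converts noradrenaline to adrenaline, had normalised intensities of 402, 442 and 460.5 in the ureters and 54.0 in the reference. It was above background in every ureter and not in the reference, hence at least 3.21-fold higher (2.75 ± 0.52; adjusted p = 0.0357). The other 4 genes of that list, Th, Dbh, Chga and Chgb, did not pass and had negative differences, from -0.01 for Th to -2.32 for Chgb; Chga and Chgb were chosen after their values were seen. Chgb had 597, 2983 and 894 in the ureters and 5881 in the reference.

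Genes of the skeletal neuromuscular junction and muscle, which a whole newborn body holds in quantity, were lower in the ureters in 4 of 5 tested cases. The share over all genes tested was 4.77%. Chrna1, the muscle-type nicotinic receptor subunit, had 163, 158 and 147 in the ureters and 4959 in the reference, or at least 28.0-fold lower with 1 ureter at background (adjusted p = 0.00771). Musk, the receptor kinase that assembles the junction, gave -2.09 ± 0.62 and did not pass (adjusted p = 0.108).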
